A study of Rattus norvegicus and Mus musculus with 25 samples.

Results

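The Control cultures of the Vldlr overexpression experiment were compared with the PBS cultures of the Reelin experiment, 2 libraries against 2, out of 25 libraries in the series. All were neonatal rat ventricular cardiomyocytes, taken from 1-day-old SD rats, digested, and pre-plated to remove cells that attach faster than cardiomyocytes. The Control libraries belong to the arm in which cells were transduced for 72 h, where the treatment text names AAV9-CMV-GFP, a virus that carries a green fluorescent protein under a general promoter, as the counterpart of AAV9-cTnT-Vldlr, which drives Vldlr from a cardiac troponin promoter. Their 2 columns are headed Blank, matched no label by name, and were given to the Control group by elimination, so whether these cells received any virus is not settled by the sources used here. The PBS libraries are vehicle cultures kept for 48 h, the reference for added Reelin. Culture time, any control virus and the experiment itself differ together between these groups and cannot be told apart. A pair with the same times was set beside them: Vldlr OE (AAV9-cTnT-Vldlr, 72 h) against Reelin (48 h), 2 libraries each, which share no library with Control or PBS but carry treatments of their own. This pair is also split between the overexpression and the Reelin experiment. The siRNA libraries named below, si-Control_v and si-Vldlr (50 nM, 60 h, 2 libraries each), complete the table of 12 rat libraries. The labels name no culture, litter or batch for a library, and p-values therefore rest on a spread that may be technical only.

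Rat ventricular myocytes of this age still contract and carry out a last round of DNA synthesis before they leave the cell cycle for good, and the fibroblasts, endothelial cells and macrophages that survive pre-plating go on dividing in the dish. Passage through mitosis is read from a set of genes that are switched on together late in the cell cycle, and the cyclin-dependent kinase inhibitor p21, the product of Cdkn1a, helps to keep that set off after p53 is activated. Inflammatory genes such as Lcn2, C3 and Cxcl2 are targets of the transcription factor NF-kappaB in many cell types, heart cells included.

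Values are CPM, counts scaled to a fixed library total by the authors; levels are compared between libraries and not between genes. Of the 28909 rows, 13457 genes had at least 1 CPM in 2 of the 4 columns and were tested. The Control and PBS libraries hold 78075898 to 81758461 steps of the smallest spacing seen in the values; a step need not be a read, and the depth in fragments is unknown. Across the tested genes the median absolute log2 difference was 0.146 to 0.158 between a Control and a PBS library, 0.126 between the Control libraries and 0.0915 between the PBS libraries. The Control libraries were almost as far from each other as from PBS: 384 genes were at least 1.5-fold higher and 243 at least 1.5-fold lower in Control 2 than in Control 1, against 118 and 110 between the PBS replicates. The 17 cardiomyocyte markers were detected in all 4 libraries, with a summed level of 37918 and 39227 CPM in Control and 38220 and 39218 CPM in PBS. Fibroblast markers were also detected, with a summed level of 36813 and 41261 CPM in Control and 44281 and 47619 CPM in PBS. In such bulk samples fewer cells of a type and less RNA per cell cannot be told apart.

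Control cultures differed from PBS cultures in both directions to a like extent. Between Control and PBS 423 genes were called at an adjusted p under 0.05, which is 3.14% of the genes tested. In Control, 216 genes were higher (1.61%) and 207 were lower (1.54%), and 2019 (15%) differed at an unadjusted p under 0.05. Leaving out the called genes listed at 0 in any of the 12 libraries, 213 higher genes had log2 fold changes of 0.32 to 3.23, with a median of 0.73, and 204 lower genes -2.79 to -0.38, with a median of -0.94, beside 0.018 over all genes. The 4 libraries did not overlap in any of the called genes, which holds for 51.9% of all genes tested, 29.2% with Control higher and 22.8% with Control lower. Among all genes 54% had a log2 fold change above 0 and 46% below 0. Without Control 1 the counts were 29 higher and 33 lower, without Control 2 they were 185 and 289, without PBS replicate 1 they were 33 and 23, and without PBS replicate 2 they were 34 and 17. The 24 genes with the largest changes were chosen with no overlap between Control and PBS. Leaving out any 1 of these libraries therefore could not change their direction. Of 84 called genes chosen by the rule for named genes, 59 were not called without Control 1, 13 without Control 2, 62 without PBS replicate 1 and 62 without PBS replicate 2. The 19 called under each of the 4 included the higher genes Lcn2, Prg4, Esm1, C3, Impad1, C6, Cdkn1a, Gja5 and Ltbp1 and the lower genes Fabp4, Myl1, Casq1, Tm4sf19, Hsf2bp, Il18bp, Lgals3, LOC100910669 and LOC108348173.

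The other pair of 72 h and 48 h groups moved in the same way. That pair is split between the same experiments as well as by time, and these cannot be told apart in it either. Of the 216 genes higher in Control, 213 (98.6%) were also higher in Vldlr OE than in Reelin, and 167 (77.3%) were called so; those 167 are 45.6% of the 366 genes called higher in that pair. Of the 207 genes lower in Control, 206 (99.5%) were lower in Vldlr OE, and 167 (80.7%) were called lower; these are 32.1% of the 521 called lower there. Among all genes tested, 43.9% were higher and 56% lower in Vldlr OE than in Reelin, and 2.72% and 3.87% were called in these directions, 6.59% in all. The median fold changes of the genes called in Control against PBS were 0.72 and -0.95 in the other pair, close to those in their own. In 161 of the 216 genes higher in Control (74.5%, against 5.35% of all genes) the 4 libraries at 72 h lay above the other 8, and in 156 of the 207 lower genes (75.4%, against 5.6%) they lay below the other 8. Only 25 of the higher genes (11.6%) and 25 of the lower ones (12.1%) set the PBS libraries apart from the other 10, against 1.61% and 1.15% of all genes. The Control libraries stood apart from the other 10 in 17 higher (7.87%) and 26 lower genes (12.6%), against 1.84% and 1.12% of all genes. Control and PBS already did not overlap in any called gene. The shares over all genes are therefore not a like baseline for the counts of libraries that lay apart. The difference between the 2 contrasts was called in 3 genes (0.0223%), described at the end, and had an unadjusted p under 0.05 in 473 (3.51%). This count depended on single libraries: it was 31 without Control 1, 70 without Vldlr OE replicate 2, and 7 without either PBS or either Reelin library.

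**Figure D1:**
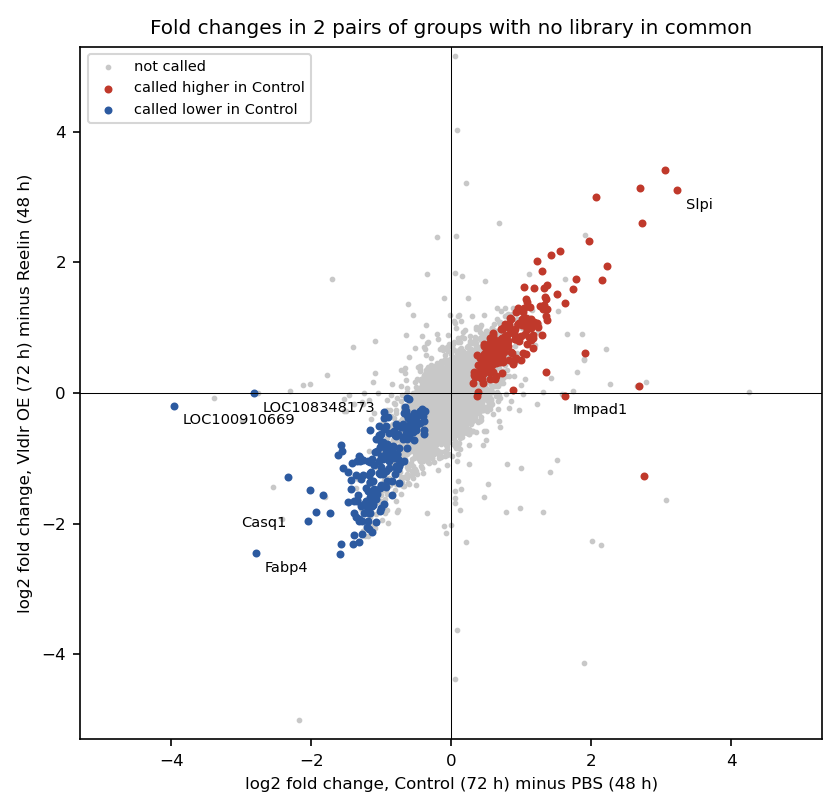
Log2 fold change of each gene in Control (72 h) minus PBS (48 h), on the horizontal axis, against Vldlr OE (72 h) minus Reelin (48 h), on the vertical axis; red and blue points are the 216 genes called higher and the 207 called lower in Control, grey points the rest, and 1 gene lies outside the axes. The coloured points lie mostly along the diagonal, with Impad1, LOC100910669 and LOC108348173 near 0 on the vertical axis.

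Genes of mitosis moved together. All 39 tested members were lower in Control than in PBS, 24 of them called (1.54% of all genes were called lower), with a median log2 fold change of -1.14 and a range of -1.41 to -0.59. Kif20a, a kinesin of the dividing cleft, had 15.9 and 31.4 CPM in Control and 55.6 and 55.7 CPM in PBS, a log2 fold change of -1.27 ± 0.23 (SE, adjusted p = 0.0207). Bub1, a spindle checkpoint kinase, had 11.9 and 19.3 CPM in Control and 31.9 in both PBS libraries (-1.02 ± 0.18, adjusted p = 0.0198). Cdca8, a subunit of the chromosomal passenger complex, had 9.52 and 16.4 CPM in Control and 28.1 and 29.4 CPM in PBS (-1.14 ± 0.21, adjusted p = 0.0224). In each of these 3 genes Control 1 was the lower library. Both Control libraries were below both PBS libraries, as in every gene called lower and in 22.8% of all genes. Cdc25c, a phosphatase that opens the way into mitosis, had 5.92 and 5.88 CPM in Control and 9.68 and 10.3 CPM in PBS (-0.67 ± 0.12, adjusted p = 0.0198). The Control libraries differed over the whole list: its median against the PBS mean was -1.65 in Control 1 and -0.64 in Control 2. Without Control 1 the median was -0.64 and 2 members were called, without Control 2 it was -1.65 with 39 called, and without either PBS library no member was called although the medians were -1.09 and -1.13. No member was called when only the 4 libraries were fitted, which called 145 genes lower in all, and 1 was called with no filter on low values. In Vldlr OE against Reelin all 39 were called lower, with a median of -1.72, and medians of -1.48 and -1.79 in the Vldlr OE libraries; the si-Control_v and si-Vldlr libraries, at 60 h, lay between -0.12 and 0.32.

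Genes of DNA synthesis were mostly lower too. Of 40 tested members of the DNA replication list, 36 were lower in Control, none was called by limma at an adjusted p under 0.05 and 6 had an unadjusted p under 0.05, and the median was -0.23. Rrm2, a subunit of ribonucleotide reductase, had 15.9 and 37.7 CPM in Control and 55.0 and 58.1 CPM in PBS (-1.17 ± 0.29, adjusted p = 0.0661). Tk1, a thymidine kinase, had 22.8 and 37.3 CPM in Control and 47.4 and 51.1 CPM in PBS (-0.74 ± 0.19, adjusted p = 0.0657). Cdc45, a part of the replicative helicase, and Uhrf1, which copies DNA methylation, had log2 fold changes of -0.82 (adjusted p = 0.111) and -0.62 (adjusted p = 0.147). The list's median against the PBS mean was -0.44 in Control 1 and -0.05 in Control 2, so most of its difference came from 1 library. In Vldlr OE against Reelin all 40 were lower and 16 were called, with a median of -0.56. Some genes outside these lists or in other lists that are also known from dividing cells were lower too. Cdkn3, a phosphatase of cyclin-dependent kinases named for the size of its change, had 5.52 and 8.40 CPM in Control and 21.6 and 18.8 CPM in PBS (-1.43 ± 0.19, adjusted p = 0.00424). Nek2l1, listed as a separate gene although it resembles Nek2 and may share reads with it, had 2.40 and 6.17 CPM in Control and 14.2 and 13.2 CPM in PBS (-1.57 ± 0.29, adjusted p = 0.0212). Birc5, which encodes survivin of the chromosomal passenger complex, had 4.67 and 9.99 CPM in Control and 20.0 and 19.3 CPM in PBS (-1.39 ± 0.27, adjusted p = 0.0286).

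Promoters of the mitotic genes are shown because many of them, but not all, share short motifs. Short motifs are known from late cell cycle promoters, the cell cycle genes homology region (CHR, TTTGAA) and the CCAAT box (CCAAT). Both were searched on both strands in the window from 250 bases before to 50 after each start in RefSeq (build GRCr8), with any overlap between motifs allowed. Among the 31 of 39 tested members with 1 promoter in that table, 23 (74.2%) held a CHR, 26 (83.9%) a CCAAT box and 20 (64.5%) both. The shares were 11.3%, 37.5% and 4.55% of the promoters of 9024 tested genes, and 18.3%, 37.5% and 7.41% of all 33469 promoters. The 250 bases before the start are given for a gene with both motifs, Cdca8 (chr5:142483200-142483449, minus strand), and for one with neither, Bub1 (chr3:135504922-135505171, minus strand), with the motifs in capitals; the CHR of Cdca8 runs into a CCAAT box on the other strand.
Cdca8: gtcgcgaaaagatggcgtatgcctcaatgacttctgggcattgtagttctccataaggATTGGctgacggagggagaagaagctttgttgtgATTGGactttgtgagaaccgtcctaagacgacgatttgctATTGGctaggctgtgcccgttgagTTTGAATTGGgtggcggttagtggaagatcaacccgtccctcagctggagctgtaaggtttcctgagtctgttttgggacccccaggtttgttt
Bub1: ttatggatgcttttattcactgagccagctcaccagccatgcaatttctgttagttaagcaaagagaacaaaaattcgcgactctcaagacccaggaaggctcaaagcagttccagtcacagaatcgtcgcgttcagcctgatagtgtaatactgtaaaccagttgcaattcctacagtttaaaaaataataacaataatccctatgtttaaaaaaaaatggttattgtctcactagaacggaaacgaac
Both genes were lower in Control, by -1.14 and -1.02 on the log2 scale. A match is a description of the sequence and not evidence of a bound factor.

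Inhibitors of the cell cycle and targets of p53 were higher in Control in the same libraries in which mitotic genes were lower. Of 24 tested members, 19 were higher, 7 of them called (1.61% of all genes were called higher) and none called lower, with a median of 0.39. Cdkn1a had 336.9 and 258.3 CPM in Control and 120.8 and 117.7 CPM in PBS, a log2 fold change of 1.3 ± 0.12 (adjusted p = 0.00127). Mdm2, the ubiquitin ligase that limits p53, had 114.6 and 87.7 CPM in Control and 63.3 and 58.3 CPM in PBS (0.71 ± 0.12, adjusted p = 0.0132). Aen, a nuclease induced by p53, had 69.9 and 56.1 CPM in Control and 37.1 and 35.5 CPM in PBS (0.77 ± 0.12, adjusted p = 0.00987). These 3 genes were higher in Control 1 than in Control 2. Phlda3, a repressor of Akt, had 410.7 and 395.5 CPM in Control and 264.3 and 268.9 CPM in PBS (0.59 ± 0.11, adjusted p = 0.0198). In Cdkn1a, Mdm2, Aen and Phlda3 both Control libraries were above both PBS libraries, as in every gene called higher and in 29.2% of all genes. The 5 members below 0 were Cdkn2c (-0.92), Cdkn2a (-0.09), Gadd45b (-0.06), Sesn1 (-0.06) and Cdkn1b (-0.03), none called. Without Control 1 the median was 0.20 and 1 member was called; without Control 2 it was 0.51 and 10 were called; without either PBS library 1 was called. The si-Control_v and si-Vldlr libraries, at 102 to 127.4 CPM of Cdkn1a, lay near PBS, while Vldlr OE had 440.6 and 410.2 CPM and Reelin 117.9 and 114.6 CPM. Gdf15, a stress cytokine that p53 can also induce, had 60.3 and 41.1 CPM in Control and 22.6 and 24.9 CPM in PBS (1.04 ± 0.20, adjusted p = 0.0262).

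**Figure D2:**
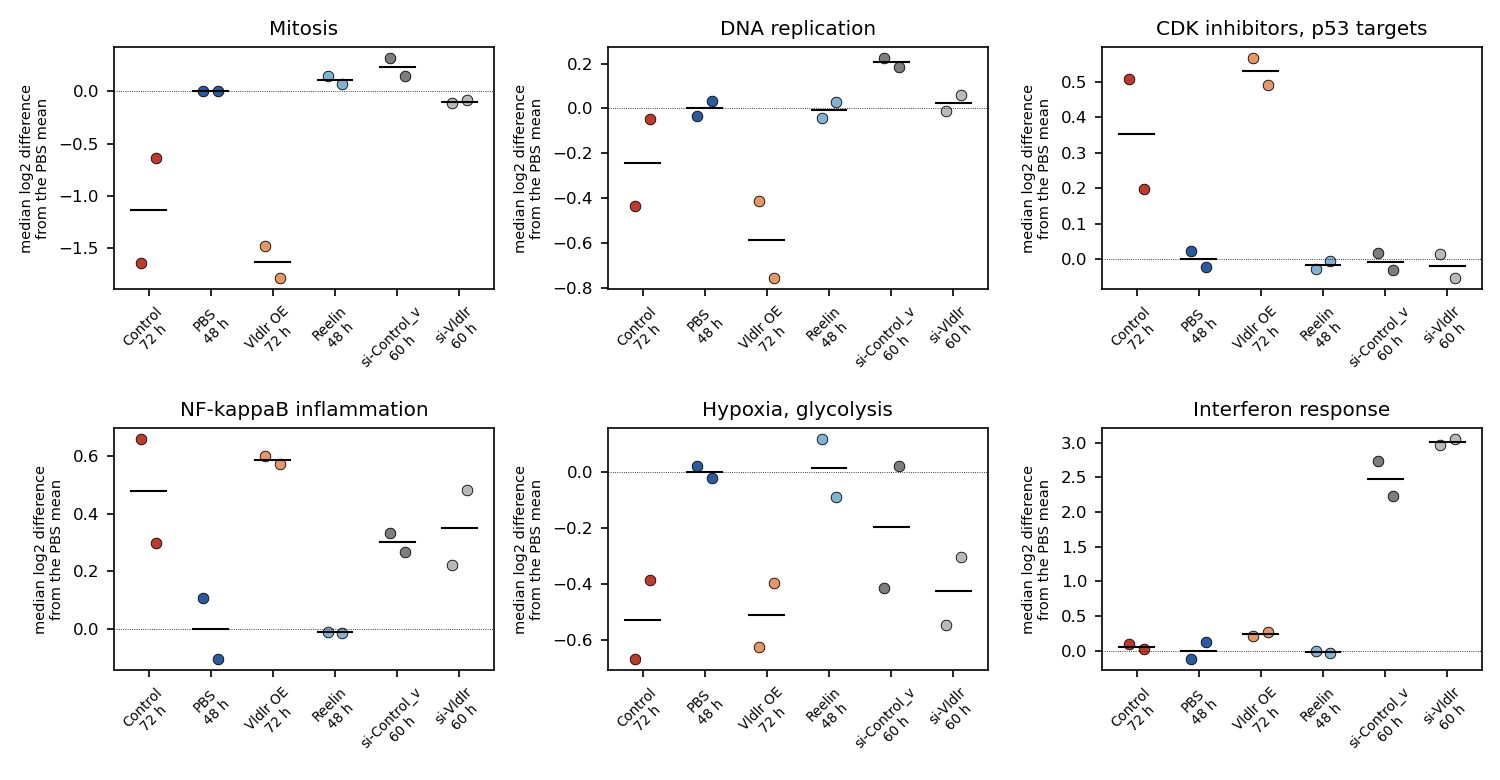
Median log2 difference from the PBS mean of the members of 6 gene lists, for each library; each panel has its own vertical scale, points are libraries and bars are the mean of the 2 libraries of a group. Mitosis genes were lower and cell cycle inhibitors higher in the Control and Vldlr OE libraries, with Control 2 nearer to PBS than Control 1, while interferon response genes were high in the si-Control_v and si-Vldlr libraries and near the PBS level in Control.

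The 12 largest rises among called genes of at least 5 CPM, with an established symbol and no library at 0, were led by Slpi, Cfb and Lcn2. Slpi, a protease inhibitor of secretions, had 47.1 and 26.8 CPM in Control and 2.90 and 2.87 CPM in PBS, a log2 fold change of 3.23 ± 0.43 (adjusted p = 0.00476). Lcn2, a lipocalin that withholds iron from bacteria, had 393.5 and 277.6 CPM in Control and 54.9 and 44.2 CPM in PBS (2.72 ± 0.32, adjusted p = 0.00242). Among complement genes, C3, the central component, had 871.7 and 761.3 CPM in Control and 266.4 and 222.3 CPM in PBS (1.74 ± 0.19, adjusted p = 0.00233). C3 and Lcn2 were high in both Control libraries, with no overlap, as in every called gene. Cfb, factor B of the alternative pathway, had 57.5 and 30.8 CPM in Control and 4.19 CPM in both PBS libraries (3.06 ± 0.53, adjusted p = 0.0173). C6, a part of the membrane attack complex, had 19.7 and 15.5 CPM in Control and 4.93 and 5.10 CPM in PBS (1.62 ± 0.20, adjusted p = 0.00276). Control 1 was the higher of the Control libraries in these 5 genes, and both were above PBS, as in every gene called higher.

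The other largest rises were in Chi3l1, Pla2g2a, Prg4, Ccl6, Esm1, Nos2 and Impad1, the last described further on. Chi3l1, a chitinase-like glycoprotein, had 130.2 and 120.4 CPM in Control and 26.1 CPM in both PBS libraries (2.22 ± 0.38, adjusted p = 0.0151). Pla2g2a, a secreted phospholipase, had 34.3 and 14.6 CPM in Control and 4.06 and 1.61 CPM in PBS (2.69 ± 0.42, adjusted p = 0.0112). The PBS level of Pla2g2a varied more between libraries than that of Chi3l1. Prg4, the lubricant lubricin, had 12.1 and 10.1 CPM in Control and 2.36 and 1.18 CPM in PBS (2.15 ± 0.21, adjusted p = 0.00167). The chemokine Ccl6 had 15.8 and 5.69 CPM in Control and 1.296 and 1.778 CPM in PBS, and its log2 fold change was 2.07 ± 0.36. Ccl6 had the largest ratio between the Control libraries among the 12 genes. Esm1, a proteoglycan known from endothelium, had 44.6 and 32.5 CPM in Control and 9.80 and 8.27 CPM in PBS, a log2 fold change of 1.97 ± 0.23. Nos2, the inducible nitric oxide synthase, had 21.1 and 11.7 CPM in Control and 4.26 and 3.51 CPM in PBS, a log2 fold change of 1.78 ± 0.38. The first 6 of these had log2 fold changes of 1.73 to 3.13 in Vldlr OE against Reelin. Among the largest rises, levels in si-Control_v and si-Vldlr, at 60 h, differed by gene: Cfb had 66.9 to 153.6 CPM, above the Control libraries, and Esm1 had 5.38 to 9.43 CPM, near the PBS level. Without Control 1 the calls of Slpi, Cfb, Chi3l1, Pla2g2a, Ccl6 and Nos2 were lost, without PBS replicate 2 the same 6 were lost, and without PBS replicate 1 all of these but Pla2g2a.

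**Figure D3:**
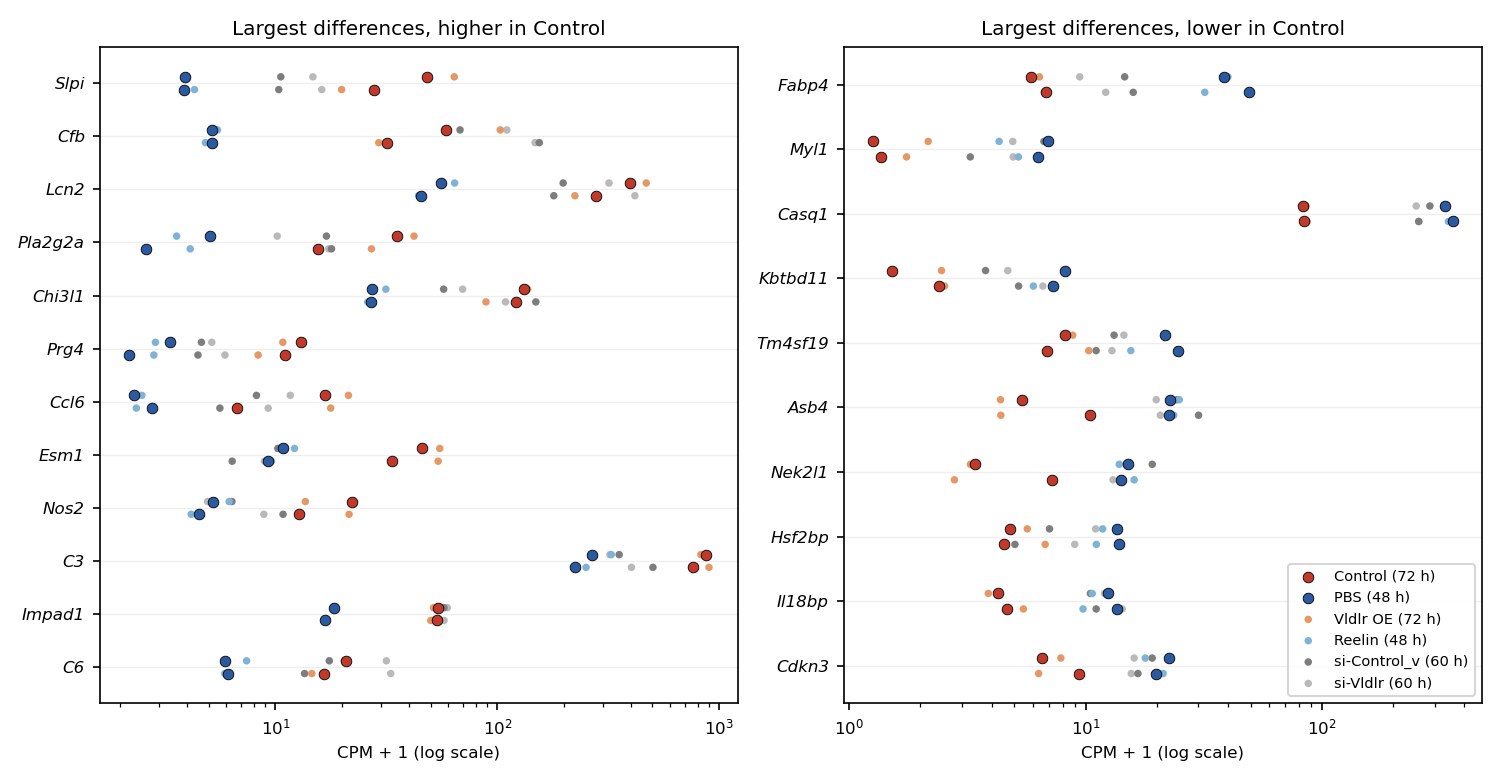
CPM + 1 on a log scale in each of the 12 libraries for the 12 genes with the largest rises (left) and 10 of the 12 with the largest falls (right) in Control against PBS; in each row the library numbered 1 is drawn above the library numbered 2. Red Control points lie apart from blue PBS points in each row, the orange Vldlr OE points lie with or near Control, PBS alone is low in Impad1, and the grey siRNA points lie at varying places between or beyond them.

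As a list, inflammatory targets of NF-kappaB were higher in Control in 26 of 28 tested members, 7 of them called higher and none lower, with a median of 0.47; 54% of all genes were higher and 1.61% called so. Beside C3, Lcn2 and Nos2, Csf1, the growth factor of macrophages, had 506.5 and 397.2 CPM in Control and 273.2 and 269.6 CPM in PBS (0.72 ± 0.12, adjusted p = 0.014). Cxcl2, a neutrophil chemokine, had 9 and 5.34 CPM in Control and 2.73 and 1.63 CPM in PBS (1.35 ± 0.28, adjusted p = 0.0341). Nfkbia, the inhibitor that NF-kappaB induces against itself, had 56.9 and 45.1 CPM in Control and 32.1 and 28.9 CPM in PBS (0.72 ± 0.16, adjusted p = 0.0436). The 2 members below 0 were Tnf (-0.35) and Birc3 (-0.08), neither called. In Vldlr OE against Reelin 26 of 28 were higher and 14 called, with a median of 0.58. The siRNA libraries, at 60 h, were also above PBS. Against the PBS mean the list's median was 0.33 and 0.27 in si-Control_v and 0.22 and 0.48 in si-Vldlr. Lcn2 had 197.0 and 178.6 CPM in si-Control_v and 317.5 and 415.8 CPM in si-Vldlr. Without Control 1 the median was 0.30 and 2 members were called; without Control 2 it was 0.66 and 9 were called; without either PBS library 2 were called. The promoters of 12 of the 22 tested members with 1 RefSeq promoter (54.5%) held the kappaB consensus in the same window and on either strand, against 5.11% of tested genes and 4.18% of all promoters. The consensus searched was GGGRNWYYCC (R is A or G, N any base, W A or T, Y C or T). The list was chosen as targets of NF-kappaB, so its higher share says nothing of Control against PBS. A match is not evidence of a bound factor. It is shown in capitals in the 250 bases before the start of Lcn2 (chr3:36081781-36082030, minus strand), Cxcl2 (chr14:17467256-17467505, minus strand) and Nfkbia (chr6:78597073-78597322, minus strand), while C3 had no match in this window.
Lcn2: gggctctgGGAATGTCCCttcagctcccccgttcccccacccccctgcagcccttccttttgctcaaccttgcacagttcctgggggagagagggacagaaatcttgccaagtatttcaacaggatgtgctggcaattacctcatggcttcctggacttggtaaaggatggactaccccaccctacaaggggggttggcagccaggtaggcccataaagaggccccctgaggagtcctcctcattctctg
Cxcl2: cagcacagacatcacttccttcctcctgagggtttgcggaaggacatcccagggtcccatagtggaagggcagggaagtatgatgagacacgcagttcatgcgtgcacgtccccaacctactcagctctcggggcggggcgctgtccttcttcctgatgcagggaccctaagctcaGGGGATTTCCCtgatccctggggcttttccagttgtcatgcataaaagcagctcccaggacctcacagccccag
Nfkbia: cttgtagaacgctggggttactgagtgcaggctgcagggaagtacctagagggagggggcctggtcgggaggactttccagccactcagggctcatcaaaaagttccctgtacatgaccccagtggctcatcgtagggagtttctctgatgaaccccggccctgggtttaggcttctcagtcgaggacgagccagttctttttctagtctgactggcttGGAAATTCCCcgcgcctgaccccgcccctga

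Immediate early genes, which cells switch on within minutes of a stimulus, were higher in 24 of 28 tested members, with 5 called higher (1.61% of all genes were) and a median of 0.41. The called genes were Junb (493.4 and 433.1 CPM in Control, 320.8 and 305.5 CPM in PBS; 0.56 ± 0.09, adjusted p = 0.0131), Maff, Dusp1, Zfp36 and Ier2. Maff, a small leucine zipper factor, had a log2 fold change of 0.63, Dusp1, a phosphatase of MAP kinases, 0.52, Zfp36, which destabilises cytokine messages, 0.53, and Ier2 0.47. In Junb, Maff, Dusp1, Zfp36 and Ier2 both Control libraries were above both PBS libraries, as in every gene called higher. The 4 members below 0 were Atf3 (-0.55), Myc (-0.32), Dusp5 (-0.32) and Klf2 (-0.17), none called. Without Control 1 or either PBS library no member was called, and without Control 2 there were 9.

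Interferon response genes were divided between higher and lower. Of 39 tested members 20 were higher and 19 lower in Control, none was called by limma and 5 had an unadjusted p under 0.05, and the median was 0.03. Irf7, a factor that amplifies the response, had 11.5 CPM in both Control libraries and 6.70 and 11.3 CPM in PBS, so that PBS replicate 2 was near both Control libraries (0.36 ± 0.20, adjusted p = 0.473). Cxcl10, a chemokine of this response, had 0.838 and 1.46 CPM in Control and 1.98 and 3.09 CPM in PBS (-0.72 ± 0.29, adjusted p = 0.276). In the si-Control_v and si-Vldlr libraries of the same table Irf7 had 293.7 to 480.6 CPM and Cxcl10 51.7 to 64.3 CPM. In Vldlr OE against Reelin 35 of the 39 were higher and 8 called higher, with a median of 0.35, while the difference between the contrasts was called in none of them. The summed level of the list was 992.5 and 879 CPM in Control and 772.8 and 858.9 CPM in PBS. Among 15 tested sensors of foreign nucleic acid and related receptors 1 was called (3.14% of all genes were). It was Tlr2, a receptor of bacterial lipoproteins, with 69.9 and 69.2 CPM in Control and 44.5 and 40.8 CPM in PBS (0.69 ± 0.14, adjusted p = 0.0309).

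Among called genes with no library at 0, the largest fall was in Fabp4, and the smallest p was that of Casq1. Fabp4, a fatty acid carrier of adipocytes, macrophages and capillary endothelium, had 4.85 and 5.80 CPM in Control and 37.6 and 48.3 CPM in PBS (-2.79 ± 0.17, adjusted p = 3.71e-05). Casq1, the calsequestrin of skeletal muscle, which buffers calcium in the sarcoplasmic reticulum, had 82.2 and 82.8 CPM in Control and 330.4 and 358 CPM in PBS, a log2 fold change of -2.05 ± 0.08 (adjusted p = 1.94e-06). Vldlr OE had 84.6 and 85.6 CPM of Casq1 and Reelin 327.1 and 342.3 CPM, while the 4 siRNA libraries held 249.8 to 285.6 CPM, so the 4 libraries at 72 h stood apart from the other 8. Myl1, a myosin light chain of fast skeletal and early heart muscle, had 0.254 and 0.359 CPM in Control and 5.94 and 5.28 CPM in PBS (-2.34 ± 0.28, adjusted p = 0.00276). The Control and PBS libraries did not overlap in any of these genes, as in every called gene. Other large falls were in Kbtbd11 (-2.01), Tm4sf19 (-1.62), Asb4 (-1.59), Hsf2bp (-1.56) and Il18bp (-1.54), the last a secreted blocker of interleukin 18. Il18bp had 3.28 and 3.65 CPM in Control and 11.4 and 12.6 CPM in PBS.

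Contractile genes as a list stayed near the level of all genes. Of 27 tested sarcomere members 11 were higher and 16 lower, with a median of -0.05. Among them 2 were called, both lower (1.54% of all genes were called lower). Myl4, the atrial and embryonic light chain, had 34.9 and 39.0 CPM in Control and 77.4 and 83.2 CPM in PBS (-1.10 ± 0.16, adjusted p = 0.00983). Acta1, skeletal alpha-actin, an isoform of the immature heart, had 250.5 and 298.7 CPM in Control and 466.3 and 525.5 CPM in PBS (-0.85 ± 0.14, adjusted p = 0.0131). Myom2, an M-band protein of mature fibres, had 352.9 and 358 CPM in Control and 189.6 and 187.1 CPM in PBS, a log2 fold change of 0.91 ± 0.24 that was not called (adjusted p = 0.0708). None of the 17 cardiomyocyte markers was called by limma (3.14% of all genes were), and 1 had an unadjusted p under 0.05. Among the markers Myh6, the alpha myosin heavy chain, had 851.4 and 991.6 CPM in Control and 1415 and 1501 CPM in PBS (-0.66 ± 0.33, adjusted p = 0.396). Of 32 tested calcium and ion channel genes 16 were higher and 16 lower, with Casq1 called lower and Gja5 called higher. Gja5, connexin 40 of atrial and conduction tissue and of arterial endothelium, had 100.8 and 112 CPM in Control and 44.5 and 48.4 CPM in PBS (1.18 ± 0.11, adjusted p = 0.00127), and 124.6 and 107.9 CPM in Vldlr OE against 58.0 and 49.8 CPM in Reelin. Of 13 tested genes of atrial identity 11 were higher and 2 lower, with a median of 0.09, Gja5 called higher and Myl4 called lower. None of 26 cardiac transcription factors was called by limma and 1 had an unadjusted p under 0.05, with a median of 0.02.

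Glycolytic and hypoxia-responsive genes were lower in Control in 30 of 31 tested members, with 5 called lower (1.54% of all genes were) and a median of -0.52. Against the PBS mean, the list's median was -0.67 in Control 1 and -0.39 in Control 2. Most siRNA libraries, at 60 h, were also below PBS: -0.41 and 0.02 in si-Control_v, -0.55 and -0.30 in si-Vldlr. Slc16a3, the lactate exporter, had 101.1 and 152.9 CPM in Control and 241 and 223.5 CPM in PBS (-0.89 ± 0.20, adjusted p = 0.0456). Slc2a1, the glucose transporter, had 111.3 and 151 CPM in Control and 218.5 and 201.6 CPM in PBS (-0.69 ± 0.16, adjusted p = 0.0476). Pkm, pyruvate kinase, had 936.6 and 1073 CPM in Control and 1493 and 1492 CPM in PBS (-0.57 ± 0.12, adjusted p = 0.0397), and the enzymes Pfkp and Pgam1 had log2 fold changes of -0.55 and -0.52 (adjusted p = 0.0131 and 0.034). The 1 higher member was Adm, a vasodilator peptide, with 118.4 and 65.4 CPM in Control and 50.9 and 51.7 CPM in PBS (0.77 ± 0.24, adjusted p = 0.142). The median was -0.39 without Control 1 and -0.67 without Control 2, and no member was called without Control 1 or without either PBS library. The 20 tested enzymes of the tricarboxylic acid cycle were all lower in Control, by a median of -0.15, with none called. Nuclear respiratory chain subunits were lower in 30 of 37, by a median of -0.11, and cytosolic ribosomal protein genes in 42 of 44, by a median of -0.15, again with none called by limma. Unadjusted p-values under 0.05 were found for 7 of the 20 cycle enzymes, 4 of the 37 respiratory chain subunits and 1 of the 44 ribosomal genes. In Vldlr OE against Reelin the first 2 of these lists had medians of -0.50 and -0.17, but the respiratory chain and ribosomal lists had medians of 0.05 and 0.13, opposite in sign to those in Control against PBS. The share of mitochondrially encoded transcripts was 4.83% and 3.27% in Control and 4.09% and 4.14% in PBS. Fatty acid oxidation genes had 2 called members of 35, Fabp4 and Ucp2 (-0.54, adjusted p = 0.0172), both lower. Sterol and fatty acid synthesis genes had 2 of 34, Fads1 (-0.39) and Srebf1 (-0.57), both lower, beside 1.54% of all genes called lower.

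**Figure D4:**
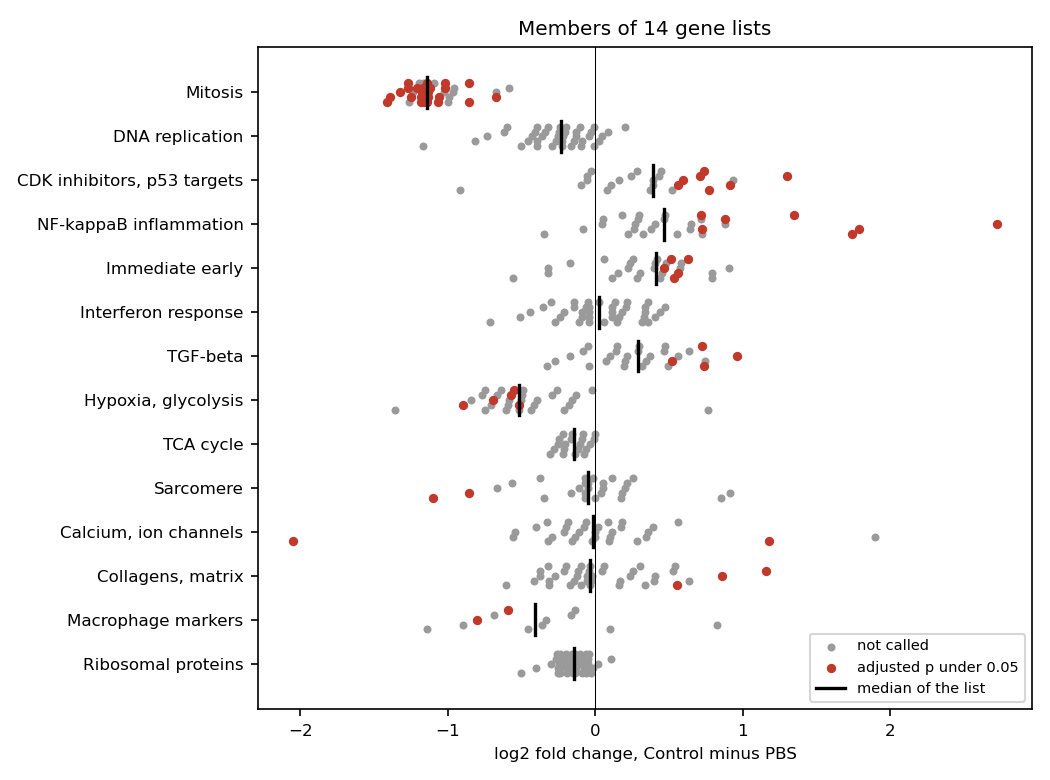
Log2 fold change of Control minus PBS for each tested member of 14 gene lists; red points have an adjusted p under 0.05, grey points do not, and black bars are list medians. The mitosis list lies wholly below 0 with 24 of 39 members called, hypoxia and glycolysis genes lie below 0 but for 1 member, and the inflammatory, p53 and immediate early lists lie mostly above 0.

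The called matrix proteins were higher, called metalloproteinases lay in both directions, and a few TGF-beta genes rose. Of all genes tested 3.14% were called, 1.61% higher and 1.54% lower. Of 28 tested ligands, regulators and targets of TGF-beta and its relatives 22 were higher in Control, with 4 called higher (1.61% of all genes were) and a median of 0.29. Ltbp1, which holds latent TGF-beta in the matrix, had 250.4 and 233.3 CPM in Control and 145.4 and 144.3 CPM in PBS (0.73 ± 0.08, adjusted p = 0.00231). Bmp6, a ligand of the same family, had 149.4 and 124.2 CPM in Control and 69.8 and 69.5 CPM in PBS (0.96 ± 0.13, adjusted p = 0.00491). Grem1, a BMP antagonist, and Smad7, an inhibitor of the pathway, had log2 fold changes of 0.72 and 0.52 (adjusted p = 0.0131 and 0.0372). The TGF-beta median differed little between libraries, at 0.27 in Control 1 and 0.29 in Control 2. Of 39 collagens and matrix proteins 16 were higher and 23 lower, with 3 called, all higher: the proteoglycan decorin, Dcn, with 681.7 and 692.9 CPM in Control and 306.6 and 307.6 CPM in PBS (1.16 ± 0.19, adjusted p = 0.0131), and the fibulins Fbln1 (0.86) and Fbln5 (0.55). Among 19 metalloproteinases and their inhibitors 3 were called. Mmp2, gelatinase A, had 2461 and 2528 CPM in Control and 1272 and 1395 CPM in PBS (0.90 ± 0.11, adjusted p = 0.00274). Mmp12, the elastase of macrophages, had 253.3 and 266.6 CPM in Control and 526.1 and 544 CPM in PBS (-1.04 ± 0.13, adjusted p = 0.00321), and Adamts15 had a log2 fold change of -0.62 (adjusted p = 0.0205). Of 18 Hippo pathway targets 16 were higher, by a median of 0.24, with Amotl2 called higher (0.43) and Birc5 called lower. Among 24 Notch and Wnt genes the Wnt antagonists moved apart: Sfrp2 had 138.7 and 125.9 CPM in Control and 47.0 and 55.9 CPM in PBS (1.35 ± 0.21, adjusted p = 0.0119), while Wif1 had 3.67 and 3.28 CPM in Control and 7.39 and 6.61 CPM in PBS (-0.84 ± 0.14, adjusted p = 0.0131), and Nkd2, a feedback inhibitor, was called higher (0.58).

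Markers of other cell types moved with some of these genes, and their part in the results was not tested. Calls over all genes came to 1.61% higher and 1.54% lower. Macrophage markers were lower in 10 of 12 tested members, by a median of -0.41, with 2 called lower, the lysosomal Cd68 (36.9 and 42.1 CPM in Control, 66.2 and 72.8 CPM in PBS; -0.80 ± 0.18, adjusted p = 0.0399) and the adaptor Tyrobp (-0.59, adjusted p = 0.0399). The 2 higher members were Adgre1 (0.82) and Cd14 (0.10), neither called. Summed over the list they came to 695.3 and 1034 CPM in Control and 1145 and 1206 CPM in PBS, with Cd163 at 0 in all 4 libraries. Lgals3, galectin 3, which is not in this list, had 144 and 158.8 CPM in Control and 294.9 and 311.7 CPM in PBS (-1.0 ± 0.11, adjusted p = 0.00242). Endothelial markers were higher in 8 of 10, by a median of 0.25, with none called by limma, 3 at an unadjusted p under 0.05, and sums of 273.8 and 262.5 CPM in Control and 213.2 and 225.3 CPM in PBS; Robo4 was at 0 in the 4 libraries. Fibroblast markers had a median of 0.13 with Dcn and Fbln1 called higher, although their sum, given above, was lower in Control. Smooth muscle and pericyte markers had sums of 5389 and 6719 CPM in Control and 5519 and 5321 CPM in PBS, with none called by limma and 2 at an unadjusted p under 0.05. Epicardial and mesothelial markers summed to 284.3 and 267.3 CPM in Control and 229.2 and 233.3 CPM in PBS, with Krt18, a keratin, called higher (1.15 ± 0.20, adjusted p = 0.0173). Schwann and neural markers summed to 51.7 and 44.6 CPM in Control and 54.2 and 53.4 CPM in PBS, and erythroid markers to at most 2.01 CPM in any of the 4, with Hbb at 0.

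Of the genes that the wider study turns on, Vldlr, Reln and Thbs1, none was called between these control cultures, and the intervals of Vldlr and Thbs1 lay mostly or wholly above 0. Vldlr, the very low density lipoprotein receptor that Reelin binds, had 576.6 and 379 CPM in Control and 370.6 and 348.3 CPM in PBS, a log2 fold change of 0.38 ± 0.18 (95% interval -0.03 to 0.79, adjusted p = 0.376). Control 2 lay close to PBS replicate 1, and Control 1 stood above the other 3 libraries. In Vldlr OE and Reelin, where the first group was given a Vldlr virus, it had 656.5 and 888.7 CPM in Vldlr OE and 400.2 and 364.4 CPM in Reelin. Reln had 1.56 and 2.06 CPM in Control and 2.23 CPM in both PBS libraries (-0.21 ± 0.41, 95% interval -1.11 to 0.70, adjusted p = 0.896). Thbs1, thrombospondin 1, had 3558 and 2998 CPM in Control and 2232 and 2258 CPM in PBS, a log2 fold change of 0.54 ± 0.14 (95% interval 0.23 to 0.85, unadjusted p = 0.0032 in limma) with an adjusted p of 0.0736 and both Control libraries above PBS, and 3127 and 3557 CPM in Vldlr OE against 2638 and 2467 CPM in Reelin. Of 15 members of the LDL receptor family and its regulators 1 was called (3.14% of all genes were). It was Mylip, the ligase that sends LDL receptors to degradation, with 40.3 and 38.1 CPM in Control and 26.75 and 26.04 CPM in PBS (0.55 ± 0.10, adjusted p = 0.0192). Among 20 integrin subunits Itgb8 was called higher (0.82) and Itga7, the laminin receptor of muscle, lower (-0.45).

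In 3 genes the difference between Control and PBS was called as unlike that of the other pair. Impad1, a Golgi phosphatase, had 53.2 and 52.5 CPM in Control and 17.3 and 15.7 CPM in PBS (1.62 ± 0.09, adjusted p = 1.48e-05), and 49.1 to 58.5 CPM in the 8 libraries of the other groups. LOC108348173 read 0 in Control, 6.13 and 6.02 CPM in PBS, and 0 in the other 8 libraries. LOC100910669 read 0 in Control, against 11.7 and 18.1 CPM in PBS. It was at 0 in si-Control_v as well, at 2.36 and 2.26 CPM in si-Vldlr, and at 12.95 and 11.85 CPM in Vldlr OE against 15.4 and 13.3 CPM in Reelin. Of the 216 and 207 called genes, 3 higher and 3 lower were listed at 0 in at least 1 of the 12 libraries, as were 149 of all tested genes. Beside the LOC genes just given, Mmp7 was at 0 and 0.41 CPM in Control and 2.45 and 2.62 CPM in PBS. The 3 higher ones were Ccnj (6.07 and 4.89 CPM in Control, at 0 in PBS), LOC100125368 (1.59 and 1.51 CPM in Control, at 0 in PBS) and LOC100912262 (9.43 and 4.62 CPM in Control, 0 and 0.294 CPM in PBS). For these 6 no fold change is given here, since an exact 0 in a table without counts can be a failed estimate.

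The remaining lists held few called genes, beside 3.14% of all genes tested. Among 34 genes of the unfolded protein and integrated stress responses Gdf15 was called higher and Stc2 (-0.79), Trib3 (-0.61) and Slc7a3 (-0.57) lower, with a median of -0.04. Stc2, a secreted glycoprotein of stress, had 23.1 and 24.0 CPM in Control and 43.0 and 39.9 CPM in PBS (adjusted p = 0.0116). Of 18 clock genes Bhlhe41, a repressor of the clock, was called lower, with 5.24 and 6.35 CPM in Control and 11.4 and 15.3 CPM in PBS (-1.07 ± 0.17, adjusted p = 0.0131). Of 27 growth factor genes Igfbp7 was called higher (0.56, adjusted p = 0.0399), and of 24 oxidative stress genes Gsta4 was called higher (0.57, adjusted p = 0.0421). None was called by limma at an adjusted p under 0.05 among 16 heat shock genes, 33 autophagy and lysosome genes, 20 atrophy genes or 28 genes of ribosome biogenesis, where 2, 5, 3 and 0 had an unadjusted p under 0.05.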

How the data were processed

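Per the labels' protocols, TRIzol was used to extract total RNA, and libraries followed standard Illumina steps. The deposited values are CPM, scaled by the authors so that each column of 28909 rows sums to 1e+06. Tools named in the submitters' processing notes are HISAT2 2.1.0, StringTie 1.3.4, edgeR 3.20.9 and, as builds, rn6 and mm10, without saying what each was used for; the annotation and strandedness are not given in the sources used here. Values are spaced in steps, a step being 1 part in 4 of a library's most common value; 98.7% to 98.89% of values under 2000 steps were whole within 0.05 steps. The number of fragments is unknown, so no count test was run and no counting interval is given.

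Log2(CPM + 1) values were fitted in limma 3.58.1 under R 4.3.3 with the trend option, on a scale that understates changes of low genes. It used 1 mean for each of 6 groups over 12 libraries, 6 residual and 4.17 prior degrees of freedom, genes with CPM of at least 1 in 2 of the 4 columns, and Benjamini-Hochberg adjustment over 13457 genes. The same fit gave Vldlr OE against Reelin and the difference of the 2 contrasts. A test on a single gene's 4 values could not go below an exact p of 0.333. The 4 rows with repeated, date-like names were dropped; the other 13 samples of the series were not used. Scripts were tested on simulated data.

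Members and the 44 gene lists were chosen with earlier results of these data known. Named genes are Vldlr, Reln and Thbs1; up to 12 per direction with the largest change among those called whose mean reached 5 CPM in Control or PBS, with no overlap, an established symbol and no 0 in the 12 libraries; called genes listed at 0; some or all of the 4 smallest-p members of each list described; and counts of 5 or fewer in full. Of the largest falls, 2 genes are not reported here. Nfkbia and the other list members outside the 4 smallest p were named after its values were seen. Promoters are from RefSeq (GRCr8) and were matched by symbol; coordinates of rn6 were not used. Alternatives were the pseudocount, the filter, the scaling, the libraries fitted, a replicate block, the prior, the trend and each library left out.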

Additional observations from a re-analysis of the deposited data

Results flagged for a closer look

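In 3 genes the effect of Control against PBS differed from that of Vldlr OE against Reelin by a test of the difference itself (limma, adjusted over 13457 genes). For Impad1 the difference of the log2 fold changes was 1.66 ± 0.12 (adjusted p = 0.000524): its log2 fold change was 1.62 in Control against PBS and -0.04 in Vldlr OE against Reelin. For LOC100910669 the difference was -3.77 ± 0.26 (adjusted p = 0.000524), and for LOC108348173 it was -2.82 ± 0.22 (adjusted p = 0.000638); both were listed at 0 in the Control libraries, so these 2 values depend on the pseudocount and are not fold changes of a measured level.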

How the results depend on the processing

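The 84 called genes chosen by the rule for named genes kept their direction under each alternative that tested them. For most alternatives this was fixed in advance, since Control and PBS did not overlap in any called gene. Only a change of scaling could have reversed a direction. Without a filter on low values 116 genes were higher and 90 lower in Control, and fitting only the 4 libraries gave 228 and 145, of which 145 and 91 were shared with the reported calls. Other settings of pseudocount, filter, scaling, prior and trend gave 156 to 223 higher and 157 to 231 lower. Leaving out 1 library gave 29 to 185 higher and 17 to 289 lower in Control against PBS, 117 to 884 higher and 141 to 1452 lower in Vldlr OE against Reelin, and 3 to 70 genes that differed between the contrasts, 31 without Control 1 and 70 without Vldlr OE replicate 2. The mitosis list had 0 called members with only the 4 libraries and 1 with no filter. Some list medians changed sign. Of the lists with a median larger than its spread between libraries, the following did so. Cardiomyocyte markers went to -0.016 without Control 2 and -0.044 without PBS replicate 1 (up to 0.051 with 1 library left out). Smooth muscle and pericyte markers, at 0.18 as reported, went to -0.00090 without Control 2 (up to 0.26). Sarcomere genes went to 0.0052 with quantile scaling and 0.0065 without Control 1 (down to -0.062). Nucleic acid sensors went to -0.035 with no filter, -0.014 with quantile scaling and -0.00080 without PBS replicate 1 (up to 0.022). Lists with a median within that spread changed sign too. Mitochondrially encoded transcripts, for example, had -0.12 as reported and 0.24 without Control 2. Collagens and matrix proteins had -0.04 as reported and 0.02 without Control 1. The cause of these changes was not tested. Same-numbered Control and PBS libraries did not deviate together (r = -0.017 over genes), so the numbers were not taken as a pairing; with the replicate block 208 genes were higher and 188 lower. Depth in fragments is unknown, which limits what can be said of low genes.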
